A study of Mus musculus with 12 samples.

Results

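The mouse receptors that bind the constant (Fc) part of IgG were followed in melanomas of mice treated with antibodies. The set was 7 listed genes, Fcgr1, Fcgr2b, Fcgr3, Fcgr4, Fcer1g, Fcgrt and Trim21, out of 22195 genes in the deposited tables, and all 7 were among the 13478 genes that passed the filter on low counts. The tumours grew from YUMM 2.1, a mouse melanoma line, implanted under the skin of immunocompetent C57BL/6J mice, and treatment began at a tumour size of 20 to 50 mm3. The 4 groups received isotype control IgG, anti-B7-H3, anti-PD1, or anti-B7-H3 plus anti-PD1 (called the combination here), with 3 libraries each and no untreated group. No group went without an injected antibody. The labels used here name neither antibody clones and isotypes nor doses, times and ages, all tumours came from 1 cell line, and the labels do not say that each library is a separate mouse. P-values here measure the spread between libraries, which may be technical.

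Fc gamma receptors sit on macrophages, monocytes, neutrophils, natural killer cells, mast cells and B cells, and they bind antibody that has coated a target. In mice, Fcgr1 encodes the high-affinity activating receptor, Fcgr3 and Fcgr4 encode activating receptors of lower and intermediate affinity, and all of them signal through the gamma chain encoded by Fcer1g, whose tyrosine motif (ITAM) is phosphorylated by Src-family kinases and recruits Syk. Fcgr2b encodes the single inhibitory receptor, whose tyrosine motif (ITIM) recruits the phosphatase SHIP-1, so the balance of activating to inhibitory receptors sets how strongly a cell answers antibody. Fcgrt encodes the heavy chain of the neonatal Fc receptor, which pairs with beta-2-microglobulin and recycles IgG inside cells, and Trim21 encodes a cytosolic antibody receptor and ubiquitin ligase that interferon induces.

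The members share sequence and place, which bears on how their reads are told apart. Fcgr2b, Fcgr4, Fcgr3 and Fcer1g lie within 275.749 kb of chromosome 1 (GRCm38, chr1:170958617-171234365), while Fcgr1 lies on chromosome 3 (chr3:96282909-96293969) and Fcgrt (chr7:45092990-45103851) and Trim21 (chr7:102557921-102565486) on chromosome 7. The coding sequences of Fcgr2b (its 882-base form) and Fcgr3 (804 bases) had 233 stretches of 31 bases in common, 27.3% of those in Fcgr2b and 30.1% of those in Fcgr3. No other pair of members shared a stretch of that length. The longest identical run, 129 bases that are positions 278 to 406 of the Fcgr2b and 263 to 391 of the Fcgr3 coding sequence, is shown in the 5′ to 3′ direction because a read inside it cannot be given to either gene by its letters.
Fcgr2b and Fcgr3 shared run: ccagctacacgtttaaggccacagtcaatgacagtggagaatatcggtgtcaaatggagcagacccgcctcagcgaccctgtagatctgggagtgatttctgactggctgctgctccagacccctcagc
The sources used here do not say how such reads were split, so the separate values of Fcgr2b and Fcgr3, and their ratio, carry an uncertainty beyond the spread between libraries.

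Library composition differed between the groups. Libraries held 15585622 to 21298142 reads with isotype control, 8099713 to 10527704 with anti-PD1, 4409772 to 5014931 with the combination and 3593110 to 3937727 with anti-B7-H3. In those groups, in the same order, 10 satellite-like genes took 89.0% to 92.3%, 67.7% to 73.4%, 29.8% to 33.5% and 0.0937% to 0.219% of the reads. Reads over 1550 olfactory, vomeronasal and taste receptor genes, which melanomas should not transcribe, gave the background that a gene's coding length would collect, which was 7.31 reads per kilobase and library with isotype control, 5.25 with anti-PD1, 0.697 with the combination and 0.0911 with anti-B7-H3. Of 6 listed melanocyte genes, Dct and Tyrp1 were at 0 in all 3 anti-B7-H3 libraries, and the other 4 exceeded 3 times background there. In the other groups 1 of 6 exceeded it with isotype control, 2 with anti-PD1 and 2 with the combination. That count depends on each group's background, which was lowest with anti-B7-H3. In CPM (TMM-scaled counts, background not subtracted), the 6 genes summed to 80.6 to 98.0 with isotype control and 74.0 to 79.0 with anti-PD1. They summed to 41.0 to 44.2 with the combination and 25.5 to 28.6 with anti-B7-H3. For anti-B7-H3 against isotype control, edgeR's quasi-likelihood test of 3 of them gave 2 lower and 0 higher (adjusted p under 0.05). These shifts follow the treatment groups, so composition and treatment cannot be told apart in any comparison between groups, with or without isotype control.

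All 4 Fc gamma receptor genes, Fcer1g and Fcgrt were higher in tumours treated with anti-B7-H3 than with isotype control, and Trim21 did not pass the test. The order over groups was isotype control, anti-PD1, combination and anti-B7-H3 for every member except Fcgr4 and Trim21, which had their lowest mean with anti-PD1. For all 7 members the mean level in the combination lay between those of anti-PD1 and anti-B7-H3. In bulk tumour RNA, more cells that carry these receptors and more receptor RNA per cell cannot be told apart.

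**Figure D1:**
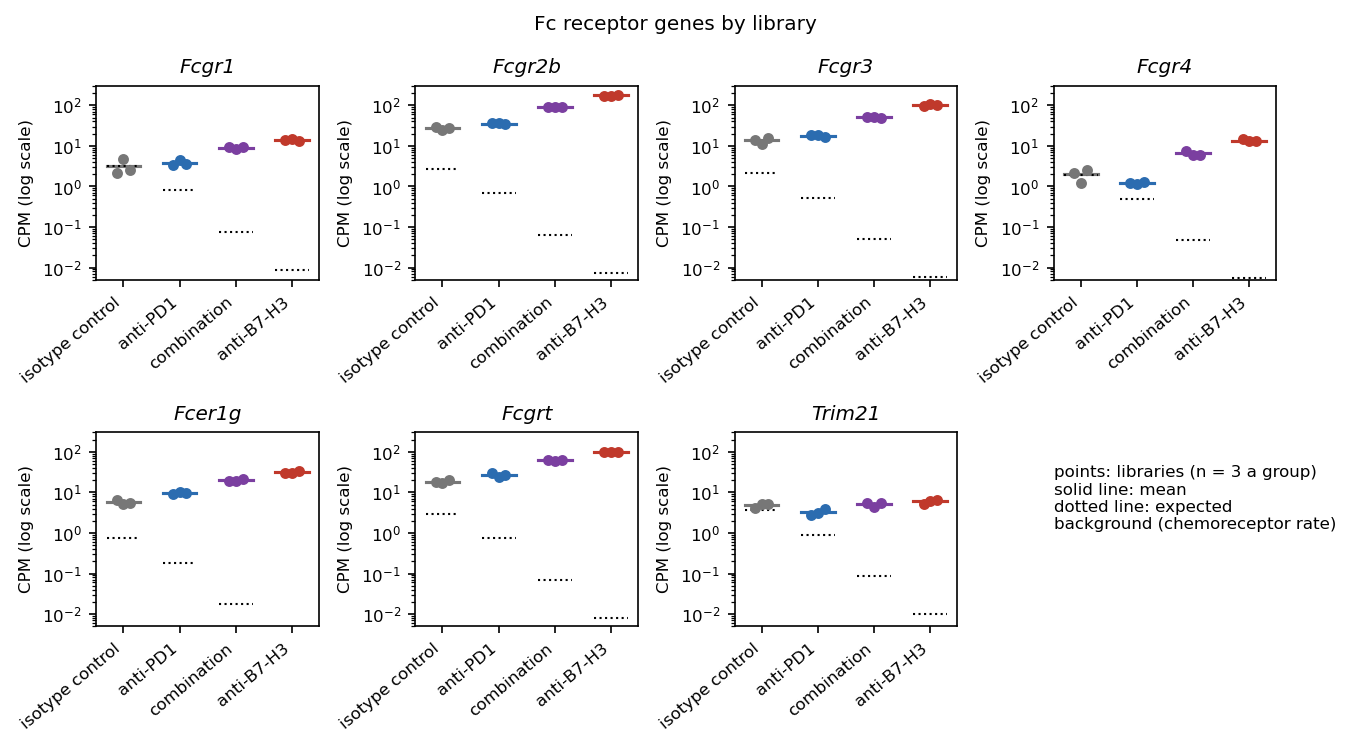
Levels in CPM (TMM-scaled counts, log scale) of the 7 members in each library, with isotype control, anti-PD1, combination and anti-B7-H3 from left to right. Points are libraries (n = 3 a group), solid lines are group means and dotted lines are the expected background. With isotype control, Fcgr1 and Fcgr4 lie on their background lines, whereas with anti-B7-H3 every member lies far above its own.

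By edgeR's quasi-likelihood test, 6 of 7 members were called higher with anti-B7-H3 than with isotype control, where 30.8% of all genes tested were called higher, 33.3% lower and 64.1% in either direction, and 7 of 7 did not overlap between the groups, against 66.7% of all genes. A call means an adjusted p (Benjamini-Hochberg, over all genes tested) under 0.05. The members' median log2 difference was 2.45, against -0.04 over all genes. With anti-PD1 against isotype control 4 of 7 were called higher and 0 lower, where 17.5% of all genes were called higher, 20.9% lower and 38.3% in either direction, at a median of 0.37 against -0.04 over all genes, and 5 of 7 did not overlap (45.4% of all genes). With the combination against isotype control 6 of 7 were called higher (all genes: 27.8% higher, 29.5% lower, 57.3% either), with a median of 1.75 against -0.01, and 6 of 7 did not overlap (61.3% of all genes).

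The comparisons without isotype control gave the same order of groups. Against anti-B7-H3 alone, the combination was called lower for 6 of 7 members (all genes: 19.8% higher, 19.1% lower, 39.0% either), with a median of -0.66 against 0.01 over all genes, and 6 of 7 did not overlap (50.4%). Against anti-PD1 alone, the combination was called higher for 7 of 7 members (all genes: 23.1% higher, 23.4% lower, 46.5% either), at a median of 1.26 against -0.00496, and 7 of 7 did not overlap (54.0%). Anti-B7-H3 against anti-PD1 was called higher for 7 of 7 (all genes: 30.4% higher, 31.6% lower, 62.0% either), with a median of 1.87 against -0.01, and 7 of 7 did not overlap (66.5%). Comparisons that share a group are not independent of each other.

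**Figure D2:**
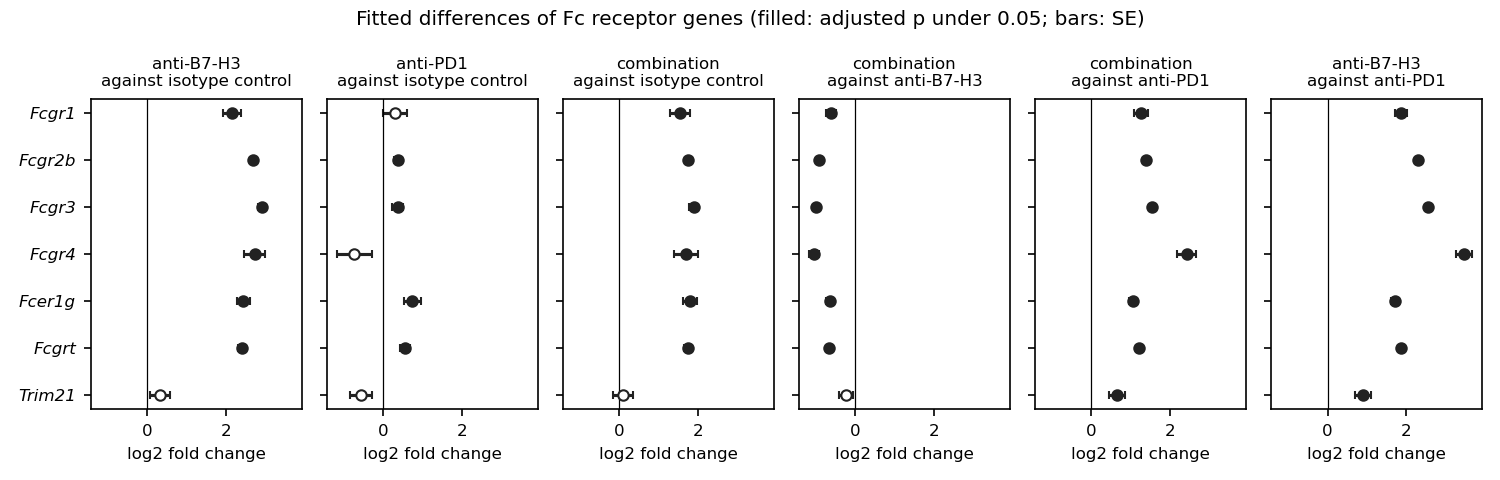
Fitted log2 fold changes of the 7 members in 6 comparisons, with standard errors as bars and filled points for an adjusted p under 0.05. The combination is below anti-B7-H3 alone for every member and above anti-PD1 alone for every member, with Trim21 open in the former.

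Fcgr2b, the inhibitory receptor, had the most reads of the members in every group, 231 in all with isotype control, 853 with anti-PD1, 3056 with the combination and 6658 with anti-B7-H3. Its levels were 29.1, 24.5 and 28.0 CPM in the 3 isotype control libraries, 35.8, 36.2 and 34.6 with anti-PD1, 90.5, 93.5 and 92.9 with the combination, and 174, 174 and 178 with anti-B7-H3. No library of a group overlapped another group. Its rise from 27.2 ± 2.40 (SD, n = 3) with isotype control to 175 ± 2.80 CPM with anti-B7-H3 was 6.42-fold (log2 2.68 ± 0.07 SE, adjusted p = 1.50e-43), and the value ran from 1.996 to 2.997 over the alternative settings. The combination was 0.93 lower than anti-B7-H3 on the log2 scale (-0.93 ± 0.0443 SE, adjusted p = 5.72e-29). Against isotype control, anti-PD1 was called 0.38 ± 0.10 higher (adjusted p = 0.00125), but with expected background subtracted the difference was -0.082 (adjusted p = 0.636), and among 4112 genes well above background it was 0.14 (adjusted p = 0.323).

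Fcgr3, the activating receptor of lower affinity, had 14.3, 11.1 and 15.4 CPM with isotype control, 18.4, 18.3 and 16.4 with anti-PD1, 51.2, 52.6 and 50.2 with the combination and 98.9, 109 and 102 with anti-B7-H3. The 4 groups again stood apart, although the lowest anti-PD1 library was close to the highest isotype control library. Anti-B7-H3 exceeded isotype control by 2.91 ± 0.10 SE on the log2 scale (7.51-fold, adjusted p = 2.15e-37), and that value ran from 2.32 to 3.22 over the alternative settings. The combination fell below anti-B7-H3 (log2 -1.01 ± 0.0554 SE, adjusted p = 9.39e-26). Its difference between anti-PD1 and isotype control, 0.37 ± 0.14 (adjusted p = 0.036), was -0.014 with background subtracted (adjusted p = 0.976) and 0.12 among genes well above background (adjusted p = 0.564). That call was also lost without isotype control replicate 1, isotype control replicate 2, anti-PD1 replicate 1 or anti-PD1 replicate 2, with adjusted p from 0.0859 to 0.265, and by DESeq2's Wald test, where it was 0.0638.

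Fcgr4, the activating receptor of intermediate affinity, rested on few reads outside the groups with anti-B7-H3. Its reads were 7, 3 and 7 with isotype control, 10, 9 and 10 with anti-PD1, 82, 62 and 72 with the combination and 193, 161 and 162 with anti-B7-H3. Expected background was 96.8% of its isotype control reads and 40.7% of its anti-PD1 reads, so its level with isotype control was not distinguishable from background. In CPM, anti-PD1 stood at 1.21 ± 0.0961, the combination at 6.54 ± 0.923 and anti-B7-H3 at 13.6 ± 0.785 (SD, n = 3 each). Anti-B7-H3 was 11.1-fold above anti-PD1 (log2 3.47 ± 0.21 SE, adjusted p = 2.98e-24), the widest difference of any member in that comparison. The combination exceeded anti-PD1 by 2.42 ± 0.24 (adjusted p = 1.11e-13) and was below anti-B7-H3 (log2 -1.05 ± 0.14, adjusted p = 8.82e-10). Between anti-PD1 and isotype control it did not pass the test (log2 -0.73 ± 0.43, adjusted p = 0.192), and with background subtracted the value was 0.40 (adjusted p = 0.792).

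Fcgr1, the high-affinity activating receptor, was the least abundant of the Fc gamma receptors per length with anti-B7-H3. Its reads were 7, 12 and 7 with isotype control, 29, 35 and 27 with anti-PD1, 100, 85 and 116 with the combination and 186, 176 and 165 with anti-B7-H3. With isotype control, background would give 26.7 reads, 103% of the 26 counted, so its level there was not distinguishable from background either. Its level rose from 3.796 ± 0.523 CPM with anti-PD1 to 13.9 ± 0.699 with anti-B7-H3 (log2 1.87 ± 0.16 SE, adjusted p = 6.15e-17), and the combination lay between them at 9.06 ± 0.588. The combination was below anti-B7-H3 by the test (log2 -0.61 ± 0.12, adjusted p = 3.50e-05), a call lost when effective lengths entered the fit (log2 -0.50, adjusted p = 0.115). Against isotype control, the fitted differences were 2.16 ± 0.24 with anti-B7-H3 (adjusted p = 1.49e-12), 1.55 ± 0.26 with the combination (adjusted p = 3.99e-07) and 0.30 ± 0.31 with anti-PD1 (adjusted p = 0.485). With background subtracted these became 4.42 (adjusted p = 3.05e-08), 3.82 (adjusted p = 3.38e-06) and 2.46 (adjusted p = 0.0125), and all 3 passed. Subtracted counts were not allowed to go negative. The isotype control reads of 7, 12 and 7 stood against 9.58, 8.64 and 8.43 expected from background, so only replicate 2 kept any. Those subtracted differences, and their calls, depend on that floor and that library.

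Fcer1g, the gamma chain through which the activating receptors signal, had 6.49, 5.20 and 5.57 CPM with isotype control, 9.12, 10.4 and 9.62 with anti-PD1, 19.3, 19.0 and 22.0 with the combination and 30.8, 30.7 and 33.9 with anti-B7-H3. No groups overlapped. Anti-B7-H3 was above isotype control by 2.45 ± 0.16 SE on the log2 scale (5.46-fold, adjusted p = 8.16e-22), and that value ran from 1.81 to 2.76 over the alternative settings. The combination was above isotype control by 1.79 ± 0.18 (adjusted p = 6.15e-14), or 1.18 with background subtracted (adjusted p = 2.88e-05). Anti-PD1 was called above isotype control by 0.74 ± 0.21 (adjusted p = 0.00342), a call lost with background subtracted (0.32, adjusted p = 0.326) and among genes well above background (0.50, adjusted p = 0.0628). The combination fell below anti-B7-H3 (-0.65 ± 0.0842, adjusted p = 9.58e-10).

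Fcgrt, the neonatal receptor's heavy chain, had 18.5, 16.8 and 19.7 CPM with isotype control, 30.5, 23.5 and 27.0 with anti-PD1, 63.4, 59.3 and 63.2 with the combination and 96.9, 99.4 and 97.7 with anti-B7-H3. Its groups did not overlap. Of 4 members tested among genes well above background, it was the 1 called with anti-PD1 against isotype control (0.31, adjusted p = 0.0448). In that setting 1444 of 4112 genes were called. The difference was 0.56 ± 0.12 in all genes tested (adjusted p = 0.000157) and 0.19 with background subtracted (adjusted p = 0.322). Anti-B7-H3 exceeded isotype control 5.32-fold (log2 2.41 ± 0.10 SE, adjusted p = 5.62e-34), and the log2 value ran from 1.83 to 2.73 over the alternative settings. The combination was below anti-B7-H3 (log2 -0.66 ± 0.0544, adjusted p = 5.88e-17).

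Trim21, the cytosolic receptor, varied least. It had 4.02, 5.20 and 5.20 CPM with isotype control, 2.73, 3.14 and 3.82 with anti-PD1, 5.46, 4.34 and 5.33 with the combination and 5.24, 6.20 and 6.54 with anti-B7-H3. Only the anti-PD1 libraries lay below all others, and background made up 76.2% of the isotype control reads. Anti-B7-H3 and the combination were called above anti-PD1, by 0.89 ± 0.20 SE (adjusted p = 7.78e-05) and 0.65 ± 0.21 (adjusted p = 0.0072), the second a call lost without anti-PD1 replicate 1 (0.53, adjusted p = 0.0623). Against isotype control it did not pass the test with anti-B7-H3 (0.33 ± 0.25, adjusted p = 0.245), the combination (0.09 ± 0.26, adjusted p = 0.784) or anti-PD1 (-0.56 ± 0.29, adjusted p = 0.117). With background subtracted, its anti-B7-H3 difference was 1.64 (adjusted p = 0.00341) and its combination difference 1.41 (adjusted p = 0.0175), and both passed. The anti-B7-H3 difference also passed with satellite-like genes left out (0.54, adjusted p = 0.0445) and without the filter on low counts (0.64, adjusted p = 0.0156).

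Levels per kilobase of effective length allow the members to be compared with each other. With anti-B7-H3 the order of CPM per kilobase was Fcer1g at 253 ± 12.5 (SD, n = 3), Fcgr2b at 233 ± 3.34, Fcgr3 at 170 ± 7.34, Fcgrt at 102 ± 1.49, Fcgr4 at 22.1 ± 1.34, Fcgr1 at 12.9 ± 0.654 and Trim21 at 4.79 ± 0.531, and no neighbours in that order overlapped between libraries. Fcer1g is short, with 261 coding bases and an effective length between 102 and 127 bases in the 12 libraries, so its level per kilobase depends on that estimate. Other members depend on it too where a short form took reads. Fcgrt had 1.6 reads on a form of 110 bases in anti-PD1 replicate 3. Its effective length there was 653 bases, against 913 and 911 in replicates 1 and 2. Fcgr1 had 1 read on a form of 153 bases in combination replicate 3. Its effective length there was 844 bases, against 1065 and 1058 in replicates 1 and 2. In the isotype control group the order was Fcer1g at 55.5 ± 5.91, Fcgr2b at 40.1 ± 3.26, Fcgr3 at 22.7 ± 3.74 and Fcgrt at 20.5 ± 1.61, followed by Trim21, Fcgr4 and Fcgr1 between 3.16 and 4.06. There Fcgr3 and Fcgrt overlapped, as did Trim21, Fcgr4 and Fcgr1.

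For 5 of the 7 members the difference that came with anti-B7-H3 was smaller, on the log2 scale, where anti-PD1 was also given. Tested as an interaction, the combination minus anti-PD1 difference less the anti-B7-H3 minus isotype control difference was called below 0 for 5 of 7 members (all genes: 19.1% higher, 17.3% lower, 36.4% either). On the log2 scale it was -1.31 ± 0.10 SE for Fcgr2b (adjusted p = 1.93e-17), -1.38 ± 0.15 for Fcgr3 (adjusted p = 3.01e-12), -1.39 ± 0.22 for Fcer1g (adjusted p = 3.93e-07), -1.21 ± 0.13 for Fcgrt (adjusted p = 5.31e-12) and -0.91 ± 0.33 for Fcgr1 (adjusted p = 0.0246). Fcgr4 (-0.32 ± 0.45, adjusted p = 0.617) and Trim21 (0.32 ± 0.33, adjusted p = 0.474) did not pass. The call for Fcgr1 was lost with effective lengths in the fit and without isotype control replicate 1, isotype control replicate 3 or anti-PD1 replicate 2, with adjusted p from 0.0854 to 0.167. With background subtracted the 5 calls held, at -0.82 for Fcgr2b and -3.06 for Fcgr1, the values that moved most in proportion. That Fcgr1 value depends on isotype control counts of which only replicate 2 kept any reads.

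The balance of activating to inhibitory receptors moved less than the receptors themselves. The ratio was taken within each library as the summed levels per length of Fcgr1, Fcgr3 and Fcgr4 over that of Fcgr2b, which cancels library scaling. It was 0.702, 0.702 and 0.802 with isotype control, 0.692, 0.696 and 0.654 with anti-PD1, 0.813, 0.837 and 0.776 with the combination and 0.888, 0.861 and 0.892 with anti-B7-H3. The inhibitory level was thus the higher in every library, and the anti-B7-H3 libraries had the highest ratios. The 4 groups differed by an exact permutation test of the F statistic (p = 0.0013, adjusted over 12 ratios 0.00519). Between pairs of groups an exact permutation test with 3 libraries a group cannot go below p = 0.1, and that smallest value was reached by 5 of the 6 pairs, all but the combination against isotype control (p = 0.2). With background subtracted from the reads summed over a group, the ratio was 0.533 with isotype control, 0.644 with anti-PD1, 0.804 with the combination and 0.878 with anti-B7-H3, so isotype control and anti-PD1 changed places.

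Single activating receptors moved differently against Fcgr2b. Fcgr3 over Fcgr2b averaged 0.565 ± 0.0568 with isotype control, 0.566 ± 0.0256 with anti-PD1, 0.647 ± 0.0435 with the combination and 0.730 ± 0.0215 with anti-B7-H3 (exact permutation p = 0.00468, adjusted 0.00935). A Fcgr3 form of 224 bases took 28.3, 0 and 33.2 reads in the anti-B7-H3 libraries, where the Fcgr3 effective length was 584, 667 and 575 bases. A shorter effective length raises the level per length, in this ratio and in the activating to inhibitory ratio. The part of this form was not tested. Not taken per length, anti-B7-H3 exceeded isotype control by 2.91 for Fcgr3 and 2.68 for Fcgr2b on the log2 scale. Fcgr4 over Fcgr2b was 0.0412, 0.0389 and 0.0472 with anti-PD1, below all other libraries, and averaged 0.0949 ± 0.00661 with anti-B7-H3 and 0.0874 ± 0.0139 with the combination (exact permutation p = 0.0158, adjusted 0.021). In the isotype control libraries that ratio was 0.0608 to 0.116, but from reads at background, and it fell to 0.00325 with background subtracted, against 0.0255, 0.0864 and 0.0950 with anti-PD1, the combination and anti-B7-H3. Fcgr1 over Fcgr2b did not differ by the test (exact permutation p = 0.546 before and after adjustment), with means from 0.0552 ± 0.00354 with anti-B7-H3 to 0.0812 ± 0.0435 with isotype control. With background subtracted from the summed reads that ratio was -0.00213 with isotype control, where no reads were left, against 0.0551 with anti-B7-H3, 0.0585 with anti-PD1 and 0.0725 with the combination, so isotype control went from highest to lowest.

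Fcer1g and the receptors it serves did not move in step. Its level per length over the summed activating receptors was 2.08, 1.99 and 1.61 with isotype control, 2.41, 2.73 and 2.71 with anti-PD1, 1.55, 1.47 and 1.85 with the combination and 1.20, 1.22 and 1.26 with anti-B7-H3. The ratio was highest in the anti-PD1 libraries and lowest in the anti-B7-H3 libraries, and neither group overlapped any other (exact permutation p = 0.000195, adjusted 0.00117). With background subtracted the ratio was 2.02 to 3.01 with isotype control and 2.53 to 2.89 with anti-PD1, which overlap, 1.47 to 1.86 with the combination and 1.21 to 1.26 with anti-B7-H3, so the anti-PD1 libraries were no longer set apart, while the anti-B7-H3 libraries stayed lowest (adjusted exact p over the 4 groups = 0.00182). Fcer1g also serves receptors outside the Fc gamma family, and its effective length was shorter in the isotype control and anti-PD1 libraries (102 to 110 bases) than in the others (121 to 127 bases), a difference that enters this ratio and whose part in it was not tested.

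**Figure D3:**
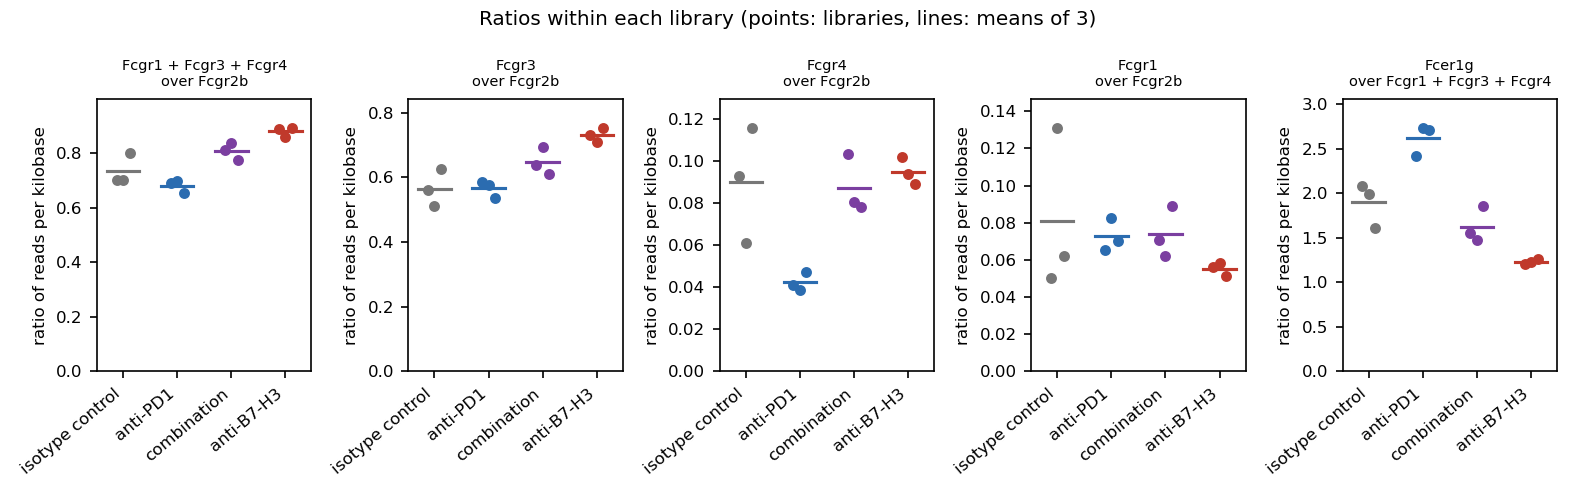
Ratios of levels per kilobase within each library, background not subtracted, with points for libraries and lines for means of 3. The activating to inhibitory ratio is highest with anti-B7-H3, Fcgr4 over Fcgr2b is lowest with anti-PD1, and Fcer1g over the activating receptors is lowest with anti-B7-H3.

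Macrophage markers moved with the receptors. The summed level of 8 macrophage markers (Adgre1, Csf1r, C1qa, C1qb, C1qc, Mrc1, Cd68 and Mertk) was 275 to 299 CPM with isotype control, 395 to 417 with anti-PD1, 1145 to 1160 with the combination and 2321 to 2349 with anti-B7-H3, and 8 of 8 were called higher with anti-B7-H3 than with isotype control. The 4 monocyte markers summed to 36.4 to 45.5, 36.4 to 39.2, 97.1 to 99.4 and 673 to 696 CPM in the same order. Markers of other cells that carry these receptors summed to lower CPM, though sums over different genes do not compare cell numbers. Mast cell markers were highest with anti-PD1, at 18.5 to 20.9 CPM with 4 of 6 above 3 times background, against 6.40 to 8.15 with the combination, 7.19 to 9.33 with anti-B7-H3 and 14.9 to 18.4 with isotype control. They were called lower than with anti-PD1 for 5 of 6 with the combination (23.4% of all genes) and 4 of 6 with anti-B7-H3 (31.6% of all genes), opposite to the Fc receptors. Neutrophil markers summed to 8.53 to 10.7 CPM with anti-PD1, 5.37 to 6.02 with the combination and 12.8 to 13.6 with anti-B7-H3, with Ngp at 0 in the last 2 groups. Natural killer cell markers summed to 8.17 to 9.97, 10.2 to 11.8 and 23.5 to 27.9 in the same order, and B cell markers to 5.14 to 6.53, 4.34 to 7.04 and 15.3 to 17.1. With isotype control, 0 of the neutrophil, mast cell, natural killer cell and B cell markers exceeded 3 times their background. The part of cell numbers in the receptor differences was not tested.

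Set against the 8 macrophage markers in the same library, Fcgr2b, Fcer1g and Fcgrt were lower with anti-B7-H3 rather than higher, also with background subtracted. On the log2 scale per length, anti-B7-H3 minus isotype control was -0.36 for Fcgr2b (exact permutation over 4 groups, adjusted p = 0.0158), -0.71 for Fcer1g (adjusted exact p = 0.00701), -0.59 for Fcgrt (adjusted exact p = 0.00935) and -2.66 for Trim21 (adjusted exact p = 0.000779, from the smallest p that permutation can give, 6.49e-05). Background made up most of the Trim21 reads with isotype control, and with it subtracted the Trim21 value was -0.66 and no longer called (adjusted exact p = 0.0594), with linear ratios of 0.00209 to 0.00433 with isotype control and 0.00177 to 0.0022 with anti-B7-H3, which overlap. For Fcgr3 it was 0.02, and its groups did not differ by the test (adjusted exact p = 0.332). In Fcgr4 the groups differed (adjusted exact p = 0.0169), with anti-PD1 lowest at -7.79 ± 0.103 and the other groups between -6.79 and -6.51. The isotype control value of Fcgr4 came from reads at background, and with it subtracted the linear ratio was -0.00589 to 0.00388 there against 0.00244 to 0.00305 with anti-PD1, so anti-PD1 was not set apart as the lowest. For Fcgr1 the value was -0.79 (adjusted exact p = 0.0854), and the direction turned with background subtracted, where the linear ratio was -0.00309 to 0.00456 with isotype control and 0.00514 to 0.00575 with anti-B7-H3. The small value for Fcgr3 turned to -0.14 without isotype control replicate 2, where the 4 groups differed by the test (adjusted exact p = 0.0183). Fcgr2b's test over the 4 groups was lost without anti-B7-H3 replicate 1 (adjusted exact p = 0.0539) or 2 (0.0524). All these adjusted exact p-values compare the 4 groups and do not test the anti-B7-H3 minus isotype control values beside them. For that pair the exact permutation p cannot go below 0.1, and for Fcgr3 with all libraries it was 0.9.

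**Figure D4:**
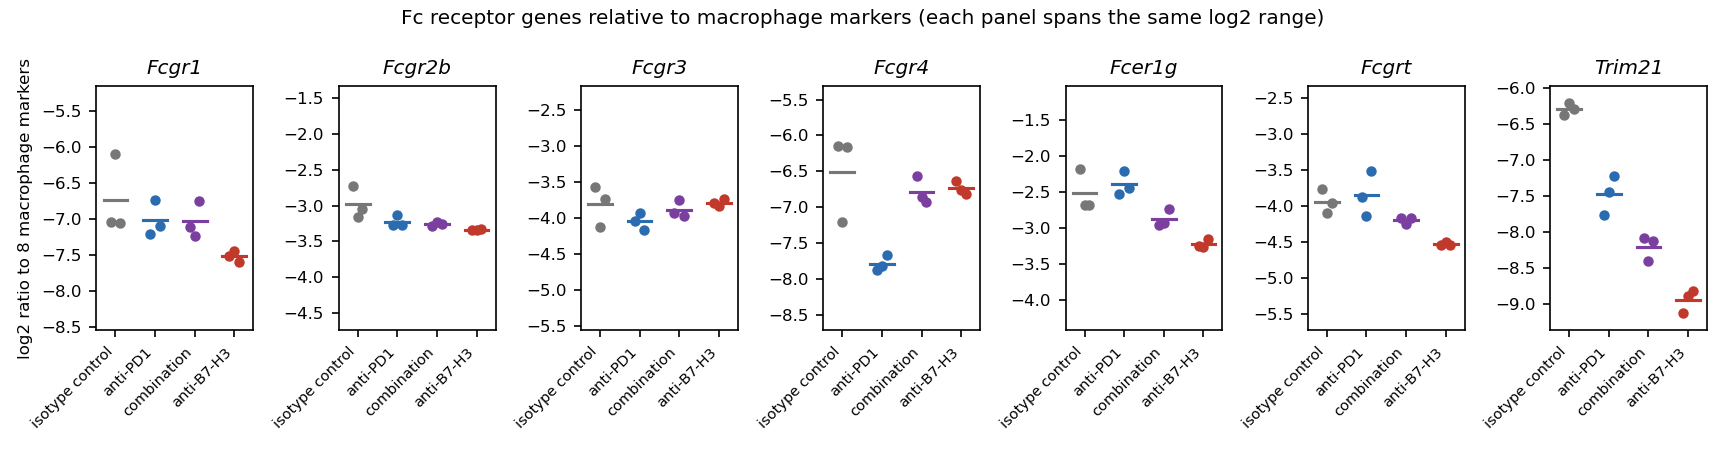
Log2 ratio of each member to the summed level of 8 macrophage markers, per length, with points for libraries and lines for means of 3. Background is not subtracted, every panel spans the same range, and the anti-B7-H3 libraries lie lowest for all members but Fcgr3 and Fcgr4.

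Fcgr2b has a long form (1023 coding bases, here b1) and a short form (882 bases, b2), which differ by 1 exon of the cytoplasmic tail. In mice the long form predominates in B cells, where the insert holds the receptor at the surface, and the short form in macrophages, where the receptor is taken up with its cargo. The exon is 141 bases and 47 residues long, positions 758 to 898 of the long coding sequence, at chr1:170963325-170963465 (GRCm38, minus strand), and it is shown because it sets the long form apart from the short. Another annotated form (939 coding bases) keeps the first part of this exon, so reads there can come from either.
Fcgr2b exon 6: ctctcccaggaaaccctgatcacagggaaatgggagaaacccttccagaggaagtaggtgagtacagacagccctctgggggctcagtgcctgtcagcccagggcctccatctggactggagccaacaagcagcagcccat
The long form took 110.7, 102.1 and 112.3 of the anti-B7-H3 reads of Fcgr2b, or 4.88% ± 0.122 (SD, n = 3), and the short form 94.8% ± 0.321. With the combination the long form took 4.26% ± 0.626 and with anti-PD1 4.23% ± 0.972, while with isotype control its share of 2.14% ± 2.26 rested on 5.7 estimated reads. The short form was thus the main form in all 12 libraries. The long form's share was 4.77% to 5.02% with anti-B7-H3 and 0% to 4.51% with isotype control, which did not overlap, while it was 3.58% to 4.797% with the combination and 3.47% to 5.33% with anti-PD1. The shares were not tested between groups. The form of 939 bases took 3.6, 7.7 and 12.5 of the anti-B7-H3 reads and 0 in the other groups.

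The 5′ regions of the members differed in their matches to an interferon motif and a PU.1 motif. Windows from 250 bases before to 50 bases after each annotated start, taken from RefSeq (GRCm38.p6) for all 7 members, were searched on both strands for GAAA followed by any 2 bases and GAAA (an interferon response element, ISRE) and GAGGAAGT (PU.1, the myeloid factor), which may overlap. Among all 32851 windows, 3.44% held the first and 3.202% the second. The windows of Fcgr4 and Trim21, which held a match, are printed 5′ to 3′ along the gene's strand with matches in capitals.
Fcgr4 (chr1:171018676-171018975, plus strand): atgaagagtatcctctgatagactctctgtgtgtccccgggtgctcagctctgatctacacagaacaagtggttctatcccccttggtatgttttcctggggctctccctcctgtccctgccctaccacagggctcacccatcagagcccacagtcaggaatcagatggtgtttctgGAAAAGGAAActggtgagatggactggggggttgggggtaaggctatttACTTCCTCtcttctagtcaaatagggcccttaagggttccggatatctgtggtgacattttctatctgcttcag
Trim21 (chr7:102565433-102565732, minus strand): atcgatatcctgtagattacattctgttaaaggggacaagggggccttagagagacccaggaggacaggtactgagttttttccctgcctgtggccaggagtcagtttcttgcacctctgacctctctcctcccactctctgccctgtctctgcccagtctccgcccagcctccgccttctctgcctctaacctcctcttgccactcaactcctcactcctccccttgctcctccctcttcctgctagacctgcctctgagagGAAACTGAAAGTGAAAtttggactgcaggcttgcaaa
Fcgr4 had GAAAAGGAAA at -73, counted from the annotated start, and ACTTCCTC, the second motif on the other strand, at -24. Trim21 had GAAACTGAAA at 13 and GAAAGTGAAA at 19, which overlap. The windows of Fcgr1, Fcgr2b, Fcgr3 (with 2 starts), Fcer1g and Fcgrt held neither of these 2 motifs, which says nothing of other interferon elements there. A match of letters is a description and does not show binding.

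Genes that act below the receptors rose with them, and with the macrophage markers, under anti-B7-H3, and the part of macrophage number in these differences was not tested. Of 5 ITAM kinases, 5 were called higher with anti-B7-H3 than with isotype control (median log2 2.03, against -0.04 over all genes, of which 30.8% were called higher), among them Syk, the kinase that docks on the phosphorylated ITAM (2.68 ± 0.15 SE, adjusted p = 1.59e-25, 1534 against 53 reads in all), and Lyn, which phosphorylates the motifs (2.12 ± 0.13, adjusted p = 3.34e-23). Syk's 53 reads with isotype control stood beside 41.5 expected from background. With anti-PD1 0 of the kinases passed edgeR's test against isotype control or DESeq2's, and 1 had an unadjusted p under 0.05. With the combination 5 of 5 were called higher (median 1.26, all genes 27.8%), and 4 of 5 were called lower with the combination than with anti-B7-H3 (all genes 19.1%).

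Of 11 signalling adaptors and enzymes, 10 were called higher with anti-B7-H3 (median 1.71, all genes 30.8%), 8 with the combination (median 0.80, all genes 27.8%) and 2 with anti-PD1 (median 0.00), each against isotype control. The 2 of 11 with anti-PD1 are near the 17.5% over all genes. Prkcd, a protein kinase C of phagocytes, rose by 2.97 ± 0.11 (adjusted p = 7.85e-36) with anti-B7-H3 and by 1.002 ± 0.14 (adjusted p = 3.08e-08) with anti-PD1. Btk, the Tec-family kinase, differed by 3.03 ± 0.30 with anti-B7-H3 (adjusted p = 2.30e-14), from 13 reads with isotype control, fewer than the 43.4 that background would give. With anti-PD1, 3 of the 11 were called lower (all genes 20.9%), among them Plcg2 and Vav3, and those values turned positive with background subtracted.

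The inhibitory arm moved in the same direction. Of 8 inhibitory enzymes and adaptors, 7 were called higher with anti-B7-H3 than with isotype control (median 1.23, all genes 30.8%), led by Inpp5d, the SHIP-1 phosphatase that Fcgr2b recruits (1.89 ± 0.12, adjusted p = 6.73e-23), and Dok2, an adaptor that restrains Ras signalling (1.78 ± 0.16, adjusted p = 3.22e-16). The combination was below anti-B7-H3 for Inpp5d (-0.92 ± 0.0736, adjusted p = 1.18e-17) and Ptpn6, the phosphatase SHP-1 (-0.85 ± 0.0868, adjusted p = 3.19e-13). With effective lengths in the fit the Ptpn6 call was lost (-0.99, adjusted p = 0.135). Against isotype control, anti-PD1 was called higher for 3 of 8 (all genes 17.5%), among them Dok1 (0.65 ± 0.16, adjusted p = 0.00101) and Cblb, a ubiquitin ligase (0.57 ± 0.16, adjusted p = 0.003). Dok1 missed the threshold with background subtracted (0.56, adjusted p = 0.0522), and Cblb without isotype control replicate 1 (0.41, adjusted p = 0.0743).

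All 10 phagocytosis and oxidative burst effectors were called higher with anti-B7-H3 and with the combination than with isotype control, with medians of 2.15 and 1.14 (all genes 30.8% and 27.8%), and 10 of 10 were lower with the combination than with anti-B7-H3 (all genes 19.1%). Cybb and Cyba, the membrane subunits of the phagocyte NADPH oxidase, differed by 3.08 ± 0.17 (adjusted p = 1.15e-26) and 2.95 ± 0.15 (adjusted p = 2.04e-27) with anti-B7-H3. Its cytosolic subunit Ncf1 was lower with the combination than with anti-B7-H3 (-1.22 ± 0.0856, adjusted p = 3.51e-20). With anti-PD1 2 were called higher and 1 lower, beside 17.5% and 20.9% of all genes. The 2 were Coro1a (0.54 ± 0.16, adjusted p = 0.00512) and Arpc1b (0.63 ± 0.0661, adjusted p = 2.44e-12), both actin regulators, and neither passed with background subtracted (adjusted p = 0.0548 and 0.289). The 1 lower was Ncf4, an oxidase subunit (-0.80 ± 0.31, adjusted p = 0.036), a call lost in 9 of its alternative settings.

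**Figure D5:**
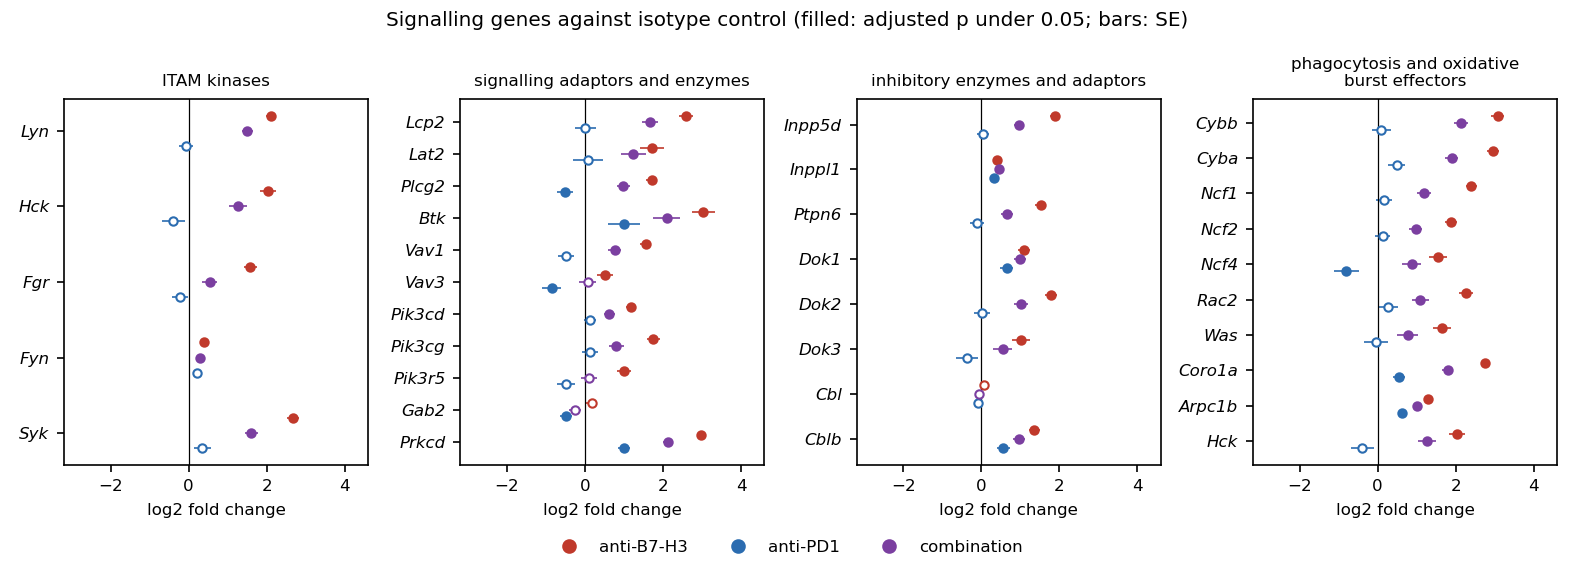
Fitted log2 fold changes against isotype control of the 4 lists of signalling genes, in red for anti-B7-H3, purple for the combination and blue for anti-PD1, with standard errors as bars and filled points for an adjusted p under 0.05. In each list the red points lie mostly right of the purple ones, while the blue points lie on both sides of 0, from -0.85 for Vav3 to 1.002 for Prkcd.

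Partners of the gamma chain and of the other members were mixed. Of 8 partners of Fcer1g and related adaptors, 5 passed the filter, and with anti-B7-H3 against isotype control 2 were called higher and 1 lower (all genes 30.8% and 33.3%). Tyrobp, the related ITAM adaptor DAP12, rose by 3.59 ± 0.17 (adjusted p = 3.30e-23), and Clec4n, the gamma-chain-coupled lectin Dectin-2, by 2.23 ± 0.19 (adjusted p = 9.54e-17). Of 10 receptors for other immunoglobulin classes and Fc receptor-like genes, 3 passed the filter, among which Fcrls was higher with anti-B7-H3 (1.18 ± 0.15, adjusted p = 2.31e-10) and Fcrla lower (-2.19 ± 0.38, adjusted p = 7.96e-07, from 39 reads against 40). B2m, the light chain that pairs with Fcgrt, exceeded isotype control by 2.70 ± 0.0609 with anti-B7-H3 (adjusted p = 3.41e-49), beside 2.41 for Fcgrt itself, and by 2.16 ± 0.0623 with the combination (adjusted p = 3.25e-42). Vcp, the unfoldase that works with Trim21, differed by 0.89 ± 0.0598 with anti-B7-H3 (adjusted p = 6.63e-22).

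Genes between the members on chromosome 1 were few. Of 7 other genes between the outermost members of the cluster, 2 passed the filter. Sdhc, a subunit of succinate dehydrogenase, was called higher with anti-B7-H3 than with isotype control (0.79 ± 0.17, adjusted p = 6.03e-05), a call lost with background subtracted (0.22, adjusted p = 0.357). Tomm40l did not pass (0.29 ± 0.25, adjusted p = 0.321).

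The genes whose centred log2 CPM lay closest to a member over the 12 libraries are given as a description, since all genes share the same libraries. The measure is the root mean square difference, which is 0 for an identical pattern. For Fcgr2b the closest were Sirpa, the CD47 receptor of macrophages, at 0.0836, C1qb, a complement C1q chain, at 0.0936, and Plau, urokinase, at 0.102. Fcgr3 was closest to Adam8 at 0.0830, C1qb at 0.0980 and Adgre1, the F4/80 antigen, at 0.115, Fcgrt to Ctsb at 0.107, Ctsz at 0.120 and Fstl1 at 0.122, and Fcer1g to Mgat1 at 0.116, Itm2b at 0.142 and Ctsb at 0.146. Ctsb and Ctsz encode lysosomal cathepsins. Fcgr1 was closest to Ptk2b at 0.141, Tnfaip2 at 0.142 and Rcn3 at 0.162. Trim21 was closest to Parp12 at 0.157, Ube2e1 at 0.165 and Hax1 at 0.174. By this measure Fcgr4 had the loosest matches, Wfdc17 at 0.278, Il2rg at 0.295 and Gbp8 at 0.298. No gene lay within 0.25 of it, while Fcgr2b had 73, Fcgr3 had 50 and Trim21 had 134. The measure depends on a member's own root mean square spread, which was 1.32 for Fcgr4 and 0.350 for Trim21. Fcgr4 also rested on 17 reads with isotype control and 29 with anti-PD1.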

How the data were processed

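Total RNA of 12 tumour libraries was depleted of ribosomal RNA, per the labels' protocols. The build was GRCm38 and reads were checked with FastQC 0.11.8, both per the submitters' processing notes. The program that made the estimated counts, and its strand setting, are not given in the sources used here.

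The authors deposited estimated counts per transcript, with lengths and effective lengths, per the file headers. Of 58083 transcripts 57473 matched GENCODE M21, and the deposited counts were summed to 22195 genes and rounded. Lengths are coding lengths, since 87.3% are multiples of 3. Library totals ran from 3593110 to 21298142 reads, and a gene's reads set the precision of its values.

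Genes were tested by quasi-likelihood F with edgeR 4.0.16, run in R 4.3.3 (robust spread, TMM scaling, filter on low counts, 1 mean per group, 12 libraries, Benjamini-Hochberg adjustment over 13478 genes, threshold 0.05). A standard error is the absolute log2 difference over the square root of F. CPM uses TMM-scaled library sizes. Ratios were tested by an exact permutation of the F statistic over 369600 assignments, adjusted over 12 ratios, and pairs of groups two-sided. The edgeR and permutation steps were tested on simulated data. Alternatives were DESeq2 1.42.0 scaling and Wald test, no filter, an effective-length offset, the replicate number as a block, a spread that is not robust, background subtraction, genes over 3 times background, satellite-like genes left out, fits of the groups compared alone, other lengths and markers for the ratios, and leaving out each library. In the edgeR fits with background subtracted, counts were not allowed to go negative.

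The members and lists were chosen with earlier results of these data known. Of each list all counts are given, and at most 2 called genes per direction and comparison are named, those with the widest difference among genes of at least 1 CPM whose groups did not overlap. Tomm40l was named outside that rule, after its values were seen, because it is 1 of 2 genes. Protein sequences were not used here, and 1 further promoter motif that was searched is not reported here.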

Additional observations from a re-analysis of the deposited data

Results flagged for a closer look

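For 5 members the difference made by anti-B7-H3 without anti-PD1 and that made with it were themselves different, by the interaction term of edgeR's quasi-likelihood fit. The log2 interaction was -1.31 for Fcgr2b, -1.38 for Fcgr3, -1.39 for Fcer1g, -1.21 for Fcgrt and -0.91 for Fcgr1. Beside them, the interaction was called lower for 7 of 8 macrophage markers (median -1.48) and 4 of 4 monocyte markers (median -2.40), and for 17.3% of all genes tested. The isotype control libraries, which enter this term, also held the largest share of satellite-like reads, and the part of either in the result was not tested.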

How the results depend on the processing

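Of 798 values of single members under an alternative setting, 771 kept their direction and side of the threshold, 16 lost and 5 gained a call, and 6 reversed. For other named genes 1583 of 1667 were kept, 81 lost a call and 3 reversed. The cause of the changes was not tested.

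Against isotype control, counts of called members stayed at 6 of 7 with anti-B7-H3 and with the combination when any 1 library was left out. With anti-PD1 that count was 4 of 7 and ran from 3 to 4 without a library. It was 1 of 7 with background subtracted (Fcgr1), where 3012 of 12925 genes tested were called. Among genes well above background it was 1 of 4 members tested (Fcgrt), where 1444 of 4112 genes were called. The Fcgr1 call depends on isotype control counts of which only replicate 2 kept any reads. Background subtraction reversed the anti-PD1 difference from isotype control for Fcgr2b (-0.082), Fcgr3 (-0.014), Fcgr4 (0.40), Trim21 (0.52), Vav3 (1.17, adjusted p = 0.228) and Plcg2 (1.502, adjusted p = 0.0501), the interaction for Trim21 (-0.76) and the combination difference for Ncr1 (5.33). Trim21's combination difference ran from -0.060 (isotype control replicate 1 left out) to 0.28 without a library. In comparisons with isotype control, background subtraction moved the median of all genes on the log2 scale by 0.31 for anti-B7-H3, 0.19 for anti-PD1 and 0.26 for both antibodies, by -0.23 for the interaction, and that of 4346 well-read genes by -0.42, -0.25 and -0.39 in the 3 comparisons.

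Called genes without the filter numbered 16711, 10021 and 15865 against isotype control (for anti-B7-H3, for anti-PD1 and for both), 11406 for the combination against anti-PD1, 14594 for anti-B7-H3 against anti-PD1 and 7352 for the interaction. Among 4112 genes well above background they numbered 2841, 1444, 2422, 2360, 3009 and 1921 in that order and 2052 for the combination against anti-B7-H3, where called members were 4 of 4 tested in both comparisons of an anti-B7-H3 group with anti-PD1. With effective lengths in the fit they were 2365 for the combination against anti-B7-H3, 3522 against anti-PD1 and 2865 for the interaction. Anti-PD1 against isotype control gave 3012 with background subtracted and 8161 without satellite-like genes, against 5164. The share of calls that were higher was 48.0%, 45.6% and 48.5% against isotype control (same order), 60.1%, 61.8% and 62.0% with background subtracted and 35.3%, 37.1% and 36.1% without the filter. It was 60.2% for the combination against anti-B7-H3 without satellite-like genes, beside 50.9%, and 42.2% for the interaction with background subtracted, beside 52.5%. For the comparisons with anti-PD1 it was 38.8% (combination) and 35.5% (anti-B7-H3) without the filter, beside 49.8% and 49.0%.

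Replicate numbers did not pair libraries (correlations of same-numbered libraries from -0.0361 to 0.0435, 0 of 18 above 0.1). With the number as a block, Fcgr3 over Fcgr2b kept 0.38 at an adjusted p of 0.0595, Fcgr4 over Fcgr2b 0.13 at 0.0648, and, relative to macrophage markers, Fcgr2b -0.36 at 0.0599 and Fcgr4 -0.23 at 0.0595, by exact permutation over 13824 assignments. Those p-values are over all groups, beside values of anti-B7-H3 minus isotype control. Without a library, log2 differences of anti-B7-H3 from isotype control ran from 0.23 to 0.33 for the activating to inhibitory ratio, from 0.31 to 0.45 for Fcgr3 over Fcgr2b and from -0.13 (isotype control replicate 2 left out) to 0.33 for Fcgr4 over Fcgr2b. Relative to macrophage markers they ran from -0.14 to 0.14 for Fcgr3 and from -0.45 to -0.23 for Fcgr2b, whose call was lost at -0.35 without anti-B7-H3 replicate 1 or 2. Fcgr3 was also at -0.094 by coding length, -0.091 by plain reads and -0.030 against Csf1r and Adgre1 alone. Against those markers the test over the 4 groups passed for Fcgr1, at -0.84 (adjusted exact p = 0.0147), and not for Fcgrt, at -0.64 (0.0634). With background subtracted Trim21 was at -0.66 (0.0594). Single ratios of Fcgr1 could be had there in only 1 of 3 isotype control libraries, and those of Fcgr4 in 2 of 3. The remaining isotype control libraries had no reads of that gene left.

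The isotype control values of Fcgr1, Fcgr4 and Trim21 are limited by background, which would give 103%, 96.8% and 76.2% of the 26, 17 and 40 reads counted over 3 libraries.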
